A study of Mus musculus with 9 samples.

Results

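The genes described here are 37 genes of DNA replication and mitosis, 17 of which act mainly in or just before S phase and 20 mainly in G2 and mitosis. They were chosen by symbol, with earlier results of these data known. Each symbol matched 1 row of the deposited count table, and all 37 were among the 14363 rows, of 38887, that were tested. The RNA came from dendritic cells that were derived in culture from mouse bone marrow, a common model of the cells that present antigen to T cells. Cells were untreated or had received lysophosphatidic acid (LPA), a lipid ligand of several G protein-coupled receptors, 2 h or 6 h earlier, and each group had 3 libraries. The labels state no strain, age, sex, culture cytokine, LPA dose, vehicle or time for the untreated cells, and do not say whether replicates came from separate animals or cultures. P-values therefore measure only the spread between these libraries, which may be technical.

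Cells that divide copy their DNA in S phase and separate the copies in mitosis. The replicative helicase is built from the Mcm2 to Mcm7 ring with Cdc45 and the GINS complex, and nucleotides are supplied by enzymes such as ribonucleotide reductase and thymidylate synthase. Entry into mitosis is driven by Cdk1 with cyclins A and B, and exit by the anaphase-promoting complex. Transcripts of these genes are known to be low in resting cells and to rise in waves, those of S phase first under E2F factors and those of mitosis later. Dendritic cell cultures from bone marrow begin with dividing precursors, and the differentiated cells largely stop dividing. In bulk RNA, fewer dividing cells and less RNA per dividing cell cannot be told apart.

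Library totals ran from 29628817 to 84596899 counts, and the lowest count of any of the 37 genes in any library was 50. Values are given as CPM, the count of a gene scaled to 1e+06 counts of its library after adjustment for composition. Genes were called at an adjusted p under 0.05 in edgeR's quasi-likelihood test, adjusted over all tested genes by the Benjamini-Hochberg method, and every adjusted p below comes from that test. Replicate 2 at 2 h stood apart from the other 2 h libraries, at 9.74 on the first principal component against -4.67 and -12.4, and so lay closest of the 2 h libraries to those of 6 h (35.7 to 40.6). Genes that mark dendritic cells were present, with the integrin gene Itgax at 1360 CPM and the dendritic transcription factor gene Zbtb46 at 18.0 CPM in untreated cells, and so were macrophage genes, with Adgre1 at 161 CPM and the complement gene C1qb at 271 CPM.

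In untreated cells the 37 genes were transcribed at low levels, apart from Pcna. Per kilobase of the longest annotated transcript, Pcna, the sliding clamp of DNA polymerases, was at 139 CPM per kilobase, the helicase subunit gene Mcm3 at 13.4, Mcm6 at 11.9 and the centromeric histone gene Cenpa at 10.5. The lowest was the kinetochore gene Cenpf at 0.322, followed by Birc5 (survivin) at 1.19, the kinetochore motor gene Cenpe at 1.22 and the cyclin gene Ccne2 at 1.26. Summed over the genes, S phase transcripts made up 518, 515 and 516 CPM in the untreated libraries, of which Pcna alone gave 210, 211 and 211. Mitotic transcripts made up 237, 201 and 218 CPM. The untreated libraries thus differed little in S phase transcripts and more in mitotic ones. In each of the 3 groups the highest mitotic sum was in replicate 1.

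After 6 h of LPA most of the 37 genes were lower and Cenpa was higher. Of the S phase genes 14 of 17 fell and 0 rose, and of the mitotic genes 15 of 20 fell and 1 rose. Over all tested genes, 25.7% were called lower and 26.4% higher in that comparison. The median log2 fold change was -0.37 for S phase genes and -0.42 for mitotic genes, against 0.007 over all tested genes. The changes were small, with Uhrf1 being the only member of the 37 called at least 2-fold lower. In 31 of the 37 genes (83.8%) the 6 h and untreated libraries did not overlap, against 63% of all tested genes. The summed S phase level was 405, 419 and 408 CPM at 6 h, below all untreated libraries, and the summed mitotic level was 192, 178 and 177 CPM, also below all untreated libraries. The share of mitotic transcripts in the total of both classes was 29.7% ± 1.65 untreated, 30.1% ± 1.18 at 2 h and 30.8% ± 1.24 at 6 h (SD, n = 3 each), so the groups overlapped in the balance of the classes. The direction of these means rests on Cenpa: with Cenpa left out, an alternative added after seeing the data, the share was 28.2% ± 1.67 untreated, 27.3% ± 1.35 at 2 h and 26.7% ± 1.21 at 6 h (SD, n = 3 each), and the groups again overlapped. The mitotic sum without Cenpa was 203 CPM untreated, 183 CPM at 2 h and 149 CPM at 6 h.

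**Figure D1:**
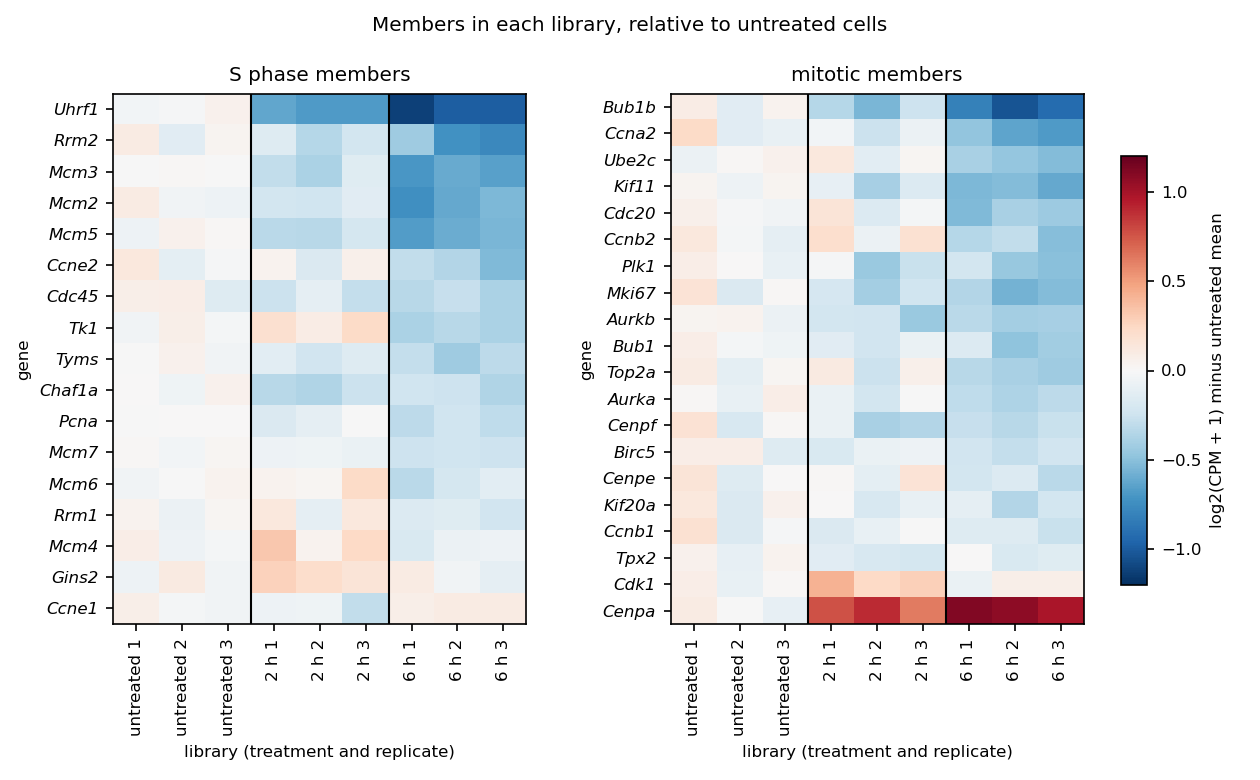
Level of each of the 37 genes in each of the 9 libraries, as log2(CPM + 1) minus the mean of the 3 untreated libraries (blue lower, red higher), with S phase genes on the left and mitotic genes on the right, ordered by their change at 6 h. The 6 h columns are blue for most genes, from -1.12 for Uhrf1 in replicate 1, while Cenpa is red in every treated library.

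Among the genes of the helicase and its partners, Mcm2, Mcm3 and Mcm5 fell most at 6 h. Mcm3 was 40.4, 41.0 and 40.4 CPM in untreated cells, 32.8, 30.9 and 36.7 CPM at 2 h and 24.6, 26.3 and 25.5 CPM at 6 h. The 3 groups did not overlap. Its log2 fold change was -0.67 ± 0.06 (SE) at 6 h (adjusted p = 2.98e-06). Mcm5 went from 22.3, 24.2 and 23.5 CPM to 14.3, 15 and 15.6 CPM at 6 h (-0.64 ± 0.06, adjusted p = 3.94e-06), and Mcm2 from 21.0, 19.0 and 18.6 CPM to 11.3, 12.4 and 13.1 CPM (-0.66 ± 0.07, adjusted p = 1.06e-05). In both genes every 6 h library lay below every untreated and every 2 h library. The other subunits of the same ring changed less: Mcm7 fell by 0.26 ± 0.05 and Mcm6 by 0.22 ± 0.07 on the log2 scale, and Mcm4 had -0.11 ± 0.08 and was not called (adjusted p = 0.259). Mcm6 was not called without untreated replicate 3 or without 6 h replicate 1. Cdc45, which activates the ring, fell by 0.40 ± 0.10, while Gins2, a GINS subunit, was at -0.03 ± 0.07 and was not called (adjusted p = 0.768).

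Among the 37, genes of chromatin copying behind the fork fell too. Other genes of this process, read from the list of other replication genes, did not. At 6 h Chaf1b rose (0.26 ± 0.07, adjusted p = 0.00894). Asf1b (0.10 ± 0.10, adjusted p = 0.426) and Dnmt1 (0.12 ± 0.06, adjusted p = 0.0946) were not called. Uhrf1, which encodes a reader of hemimethylated DNA needed to maintain methylation, was 14.3, 14.6 and 15.2 CPM untreated, 9.16, 8.78 and 8.81 CPM at 2 h and 6.24, 6.90 and 6.90 CPM at 6 h. The groups were fully separated, and the log2 fold change of -1.13 ± 0.07 at 6 h (adjusted p = 1.55e-07) had the smallest p of the 37 genes. Chaf1a, the large subunit gene of the histone chaperone CAF-1, was lower by 0.31 ± 0.07 on the log2 scale at 6 h. Its exons overlap those of Ubxn6 on the opposite strand over 4648 bases, and since the libraries are not stranded, reads there cannot be assigned to either gene by strand. Ubxn6 itself was at 0.03 (adjusted p = 0.594). Exons of Mcm7, Cdc45, Ccne2, Ccna2, Cdc20, Plk1 and Ube2c also overlap another annotated gene on the opposite strand. Pcna went from 210, 211 and 211 CPM to 169, 179 and 170 CPM (-0.29 ± 0.05, adjusted p = 3.34e-04).

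Nucleotide supply genes fell unequally. Rrm2, the cell cycle-regulated subunit gene of ribonucleotide reductase, was 12, 10.1 and 11.5 CPM untreated and 8.08, 6.35 and 6.14 CPM at 6 h (-0.72 ± 0.11, adjusted p = 1.43e-04). Its partner Rrm1 changed by -0.18 ± 0.07 (adjusted p = 0.0374), and that call was lost without any 1 of the 6 h libraries, without untreated replicate 1 or 3, and with scaling by total counts. The thymidylate synthase gene Tyms fell by 0.37 ± 0.07 and the thymidine kinase gene Tk1 by 0.40 ± 0.07 on the log2 scale. The cyclins E, which drive entry into S phase, differed. Ccne2 fell from 4.20, 3.40 and 3.72 CPM to 2.89, 2.74 and 2.30 CPM (-0.52 ± 0.13, adjusted p = 0.00578), whereas Ccne1 was 14.1, 13.2 and 13.0 CPM untreated and 14.1, 14.4 and 14.5 CPM at 6 h (0.10 ± 0.08, adjusted p = 0.301).

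Of the mitotic genes, Bub1b fell most at 6 h. It encodes BubR1, a kinase-like protein of the spindle checkpoint, and went from 24.1, 20.4 and 23.3 CPM to 12.4, 10.5 and 11.4 CPM (-0.99 ± 0.09, adjusted p = 4.31e-06). Its checkpoint partner Bub1 fell by 0.44 ± 0.11 on the log2 scale. Ccna2, which encodes cyclin A2, went from 9.05, 6.77 and 7.02 CPM to 5.16, 4.52 and 4.36 CPM (-0.71 ± 0.12, adjusted p = 4.53e-04). In Bub1b and Ccna2 no 6 h library reached an untreated one. Exons of Ccna2 overlap those of Exosc9 on the opposite strand over 510 bases. Exosc9 was at 25.3 CPM untreated and had -0.19 at 6 h, and its part in the Ccna2 values was not tested. Of the cyclins B, Ccnb2 fell by 0.56 ± 0.15 on the log2 scale, and Ccnb1 had -0.24 ± 0.12 and was not called (adjusted p = 0.105), although it passed without untreated replicate 2. The gene of their kinase, Cdk1, was 12.6, 11.2 and 12.1 CPM untreated and 11.2, 12.6 and 12.6 CPM at 6 h, which overlapped (0.03 ± 0.08, adjusted p = 0.769).

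Ube2c and Cdc20, which encode partners of the anaphase-promoting complex, fell at 6 h. Ube2c, its ubiquitin-conjugating enzyme gene, went from 2.80, 3.02 and 3.13 CPM to 2.04, 1.89 and 1.78 CPM (-0.66 ± 0.13, adjusted p = 8.4e-04), and Cdc20, its activator gene, fell by 0.64 ± 0.14 on the log2 scale. Its other activator gene Fzr1, in the list of cell cycle switches, was at -0.17 ± 0.07 and was not called (adjusted p = 0.0514). Among spindle genes, Kif11, the motor gene that separates the spindle poles, went from 7.31, 6.77 and 7.32 CPM to 4.6, 4.68 and 4.31 CPM (-0.65 ± 0.10, adjusted p = 1.99e-04). The kinase genes Plk1 (-0.55 ± 0.16), Aurkb (-0.46 ± 0.10) and Aurka (-0.40 ± 0.10) fell, whereas Tpx2, the activator gene of Aurka, had -0.12 ± 0.07 and was not called (adjusted p = 0.201). Plk1 was not called without 6 h replicate 2 or without 6 h replicate 3.

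The proliferation marker Mki67, which encodes a coat protein of mitotic chromosomes, was 57.7, 45.6 and 52.0 CPM untreated, 44.6, 38.5 and 43.4 CPM at 2 h and 40.1, 34.5 and 35.7 CPM at 6 h (-0.50 ± 0.09 at 6 h, adjusted p = 8.86e-04). Top2a, the topoisomerase gene that untangles sister chromatids, fell by 0.40 ± 0.09 on the log2 scale at 6 h. Calls of Birc5 (-0.33 ± 0.11), Cenpe (-0.27 ± 0.10) and Cenpf (-0.39 ± 0.15) were near the threshold. Their adjusted p-values were 0.0239, 0.0459 and 0.0443, and reached 0.0858, 0.183 and 0.172 over the alternatives. Cenpe and Cenpf were not called with limma-voom or with total-count scaling, or without any 1 of the 6 h libraries, and neither was called without untreated replicate 1. Cenpe was also lost without untreated replicate 3 or 2 h replicate 1, and Cenpf also without untreated replicate 3 and with DESeq2. Birc5 was lost without untreated replicate 1 or 2, or without 6 h replicate 2 or 3. Kif20a, a motor gene of cytokinesis, had -0.26 ± 0.10 (adjusted p = 0.0555). With the replicate number as a block it was called at -0.25 (adjusted p = 0.00791), and the count of mitotic genes that fell was then 16. It was also called with only the 6 libraries compared, and without untreated replicate 2, 2 h replicate 2 or 6 h replicate 1. Its exons overlap those of Cdc23 on the opposite strand over 1271 bases, and Cdc23 was at -0.06 at 6 h.

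**Figure D2:**
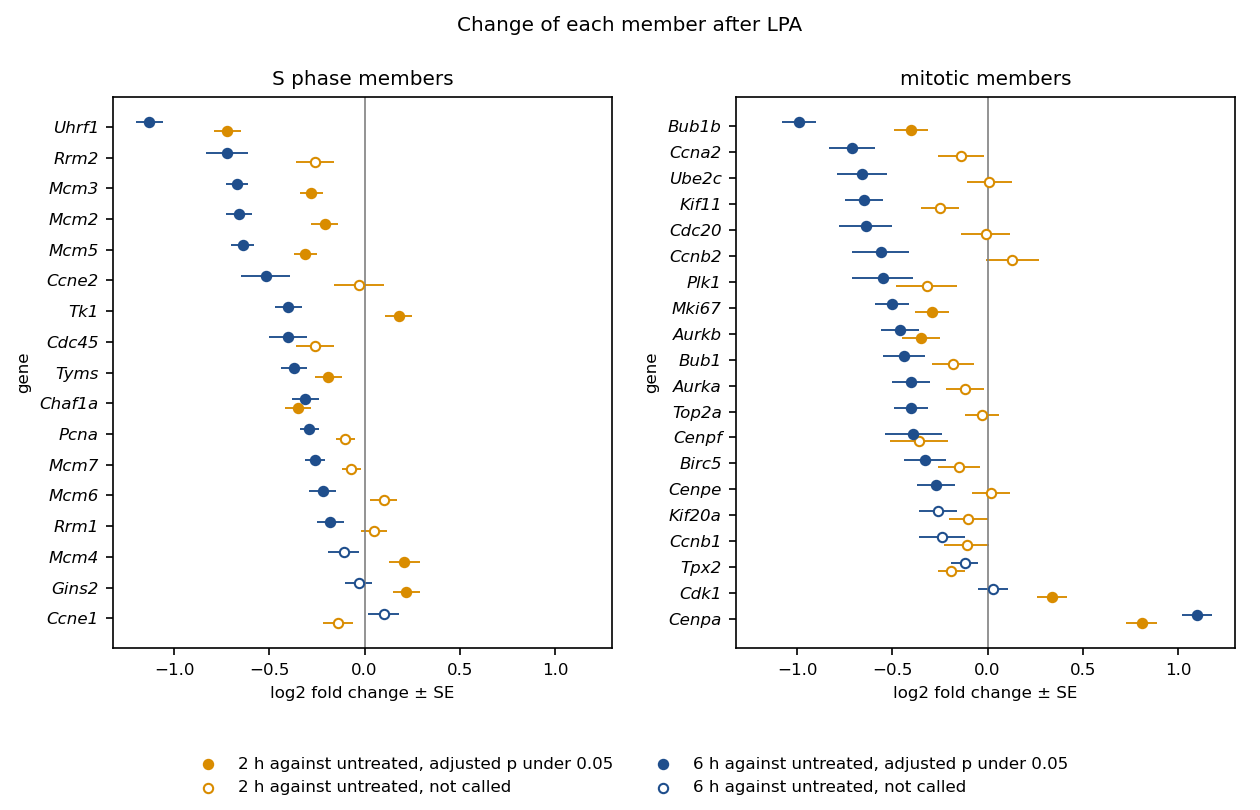
Log2 fold change ± SE of each gene at 2 h (orange) and 6 h (blue) against the same untreated libraries, filled where the adjusted p was under 0.05 and open where it was not. At 6 h the values run from -1.13 for Uhrf1 to 0.10 for Ccne1 on the left and from -0.99 for Bub1b to 1.10 for Cenpa on the right, and at 2 h more points lie near 0.

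At 2 h the 37 genes were close to the whole table in how many were called, and they went both ways. Of the S phase genes 6 of 17 fell and 3 rose, and of the mitotic genes 3 of 20 fell and 2 rose, where 19.2% of all tested genes were called lower and 19.3% higher. The medians were -0.14 and -0.13, against -0.001 over all tested genes. Groups did not overlap in 20 of the 37 genes (54.1%), against 48.2% of all tested genes. Without the 2 h library that stood apart, the counts in each class stayed within 1.5 times of these. The count of S phase genes that rose is fragile: it was 0 without untreated replicate 3 or without 2 h replicate 1, and 1 without untreated replicate 1, without 2 h replicate 3 or without 6 h replicate 2 or 3. The count of mitotic genes that fell was 5 without untreated replicate 2 and 6 without 2 h replicate 1. Of the 14 genes called at 2 h, 8 were called under every alternative run: Mcm3, Mcm5, Chaf1a, Uhrf1, Aurkb and Bub1b as lower, and Cdk1 and Cenpa as higher.

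The genes that fell at 2 h were led by Uhrf1 (-0.72 ± 0.07, adjusted p = 4.6e-06), followed by Bub1b (-0.40 ± 0.09, adjusted p = 0.00427), Chaf1a (-0.35 ± 0.07), the chromosomal passenger kinase gene Aurkb (-0.35 ± 0.10), Mcm5 (-0.31 ± 0.06) and Mcm3 (-0.28 ± 0.06). Chaf1a was 12.4, 11.9 and 12.8 CPM untreated, 9.64, 9.44 and 10.2 CPM at 2 h and 10.3, 10.3 and 9.41 CPM at 6 h. The 2 h and 6 h libraries of Chaf1a overlapped, with a difference between the times of 0.04 ± 0.07 (adjusted p = 0.682). Mki67 (-0.29 ± 0.09, adjusted p = 0.0236) and Mcm2 (-0.21 ± 0.07, adjusted p = 0.0303) also fell at 2 h. Both calls were lost without untreated replicate 1 or without 2 h replicate 2, that of Mki67 also without untreated replicate 3, and that of Mcm2 also without 2 h replicate 1 and at equal depth. Tyms fell as well (-0.19 ± 0.07, adjusted p = 0.0407), a call lost under 11 of 19 alternatives, among them leaving out any 1 of the untreated or 2 h libraries or 6 h replicate 3. Pcna (-0.10 ± 0.05), Rrm2 (-0.26 ± 0.10), Top2a (-0.03 ± 0.09), Ccnb1 (-0.11 ± 0.12), Ccne1 (-0.14 ± 0.08) and Ccne2 (-0.03 ± 0.13) were not called at 2 h. Pcna passed without 2 h replicate 3, and Rrm2 passed under 4 of 19 alternatives, among them limma-voom and leaving out untreated replicate 2 or 6 h replicate 1.

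Besides Cenpa, 4 genes rose at 2 h, and none of these was called higher at 6 h. Cdk1 was 16.2, 14.3 and 14.7 CPM at 2 h, above all untreated and all 6 h libraries (0.34 ± 0.08 against untreated, adjusted p = 0.00358, and -0.31 ± 0.08 for 6 h against 2 h, adjusted p = 0.00503). Gins2 was 22.9, 25.9 and 23.3 CPM untreated, 29.2, 27.9 and 26.8 CPM at 2 h and 25.7, 23.2 and 22.2 CPM at 6 h (0.22 ± 0.07 at 2 h, adjusted p = 0.0241). The 2 h libraries of Gins2 lay above all others. Its exons overlap those of Gse1 on the opposite strand over 2758 bases, and Gse1, at 64.2 ± 0.743 CPM untreated and 70.3 ± 3.24 CPM at 2 h (SD, n = 3 each), had a log2 fold change of 0.13 at 2 h and 0.18 at 6 h.

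Mcm4 was 26.7, 24.0 and 24.8 CPM untreated and 31.8, 25.9 and 29.9 CPM at 2 h. These groups overlapped, and the log2 fold change of 0.21 ± 0.08 (adjusted p = 0.0426) was not called under 8 of 19 alternatives, limma-voom among them. Those included leaving out untreated replicate 2 or 3, or 2 h replicate 1 or 3, or 6 h replicate 2 or 3. Tk1 was 11.3, 12.3 and 11.5 CPM untreated, 13.5, 12.5 and 13.9 CPM at 2 h and 8.74, 9.06 and 8.72 CPM at 6 h. It was thus highest at 2 h and lowest at 6 h, with no overlap between the 3 groups. The rise at 2 h (0.18 ± 0.07, adjusted p = 0.0486) was not called under 16 of 19 alternatives, DESeq2 and limma-voom among them, and it was called without untreated replicate 2 and without 2 h replicate 2. Afmid, whose exons overlap those of Tk1 over 83 bases on the opposite strand, had 0.38 at 2 h and -0.52 at 6 h, and its part in the Tk1 values was not tested. Gins2 was not called at 2 h without untreated replicate 1 or 3, or without 2 h replicate 1.

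**Figure D3:**
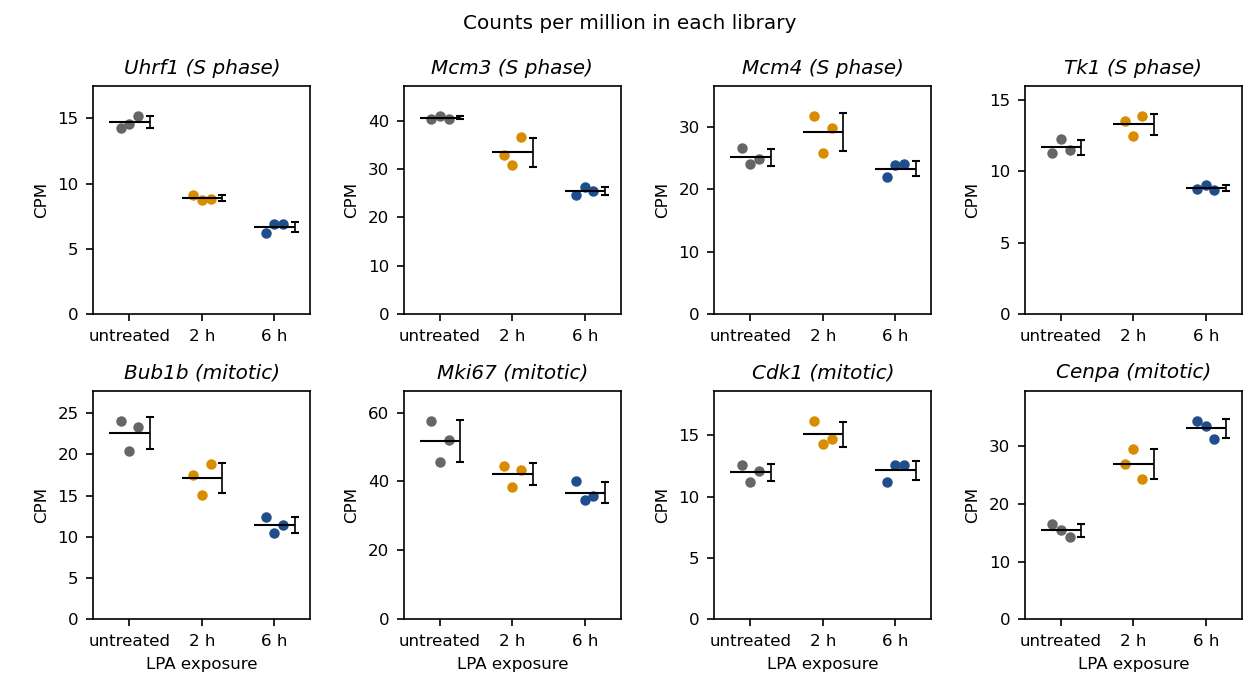
CPM of 4 S phase genes (top) and 4 mitotic genes (bottom) in each library (points), with the mean (line) and SD (bar) of the 3 libraries of each group. Uhrf1, Mcm3 and Bub1b fall at both times, Cdk1 is highest at 2 h (14.3 to 16.2 CPM), and Cenpa rises from 14.3 to 16.6 CPM untreated to 31.3 to 34.5 CPM at 6 h.

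Between the times, most S phase genes were called lower at 6 h than at 2 h, and a smaller share of the mitotic genes was. Of the S phase genes 14 of 17 were lower and 1 was higher, and of the mitotic genes 10 of 20 were lower and 1 was higher, where 48.7% of all tested genes were called, 24.4% lower and 24.3% higher. The medians were -0.32 and -0.27, against -0.006 over all tested genes, and groups did not overlap in 27 of the 37 genes (73%), against 58.9% of all tested genes. Tk1 had the smallest p (-0.58 ± 0.07, adjusted p = 5.46e-05). Ccnb2 (-0.69 ± 0.15), Ube2c (-0.67 ± 0.13), Cdc20 (-0.62 ± 0.14), Bub1b (-0.59 ± 0.09), Ccna2 (-0.57 ± 0.12), Rrm2 (-0.46 ± 0.11), Mcm2 (-0.45 ± 0.07), Uhrf1 (-0.41 ± 0.07), Mcm3 (-0.39 ± 0.06), Top2a (-0.37 ± 0.09), Mcm5 (-0.33 ± 0.06) and Pcna (-0.19 ± 0.05) were lower at 6 h than at 2 h.

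The late mitotic genes Ccnb2, Ube2c and Cdc20 were not called at 2 h against untreated and were lower at 6 h than at 2 h. Cdc20 was 2.97, 2.77 and 2.69 CPM untreated, 3.24, 2.40 and 2.74 CPM at 2 h and 1.64, 1.91 and 1.82 CPM at 6 h. Mki67 (-0.20 ± 0.09, adjusted p = 0.0902) and Ccnb1 (-0.13 ± 0.12, adjusted p = 0.397) were not called between the times. The call of Mki67 depended on the libraries, since it passed without untreated replicate 2, 2 h replicate 2 or 6 h replicate 1. The genes that were higher at 6 h than at 2 h were Cenpa (0.29 ± 0.08, adjusted p = 0.00706) and Ccne1 (0.24 ± 0.08, adjusted p = 0.0214). Ccne1 lost its call without 2 h replicate 3 and without 6 h replicate 2 or 3. Ccne2 was lower by 0.49 ± 0.13 on the log2 scale, a call lost without 6 h replicate 3 (adjusted p = 0.0516).

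Cenpa, which encodes the histone H3 variant that marks the centromere, went against the other genes. It was 16.6, 15.4 and 14.3 CPM untreated, 26.9, 29.6 and 24.3 CPM at 2 h and 34.5, 33.6 and 31.3 CPM at 6 h. The 3 groups were separated, and both log2 fold changes against untreated, 0.81 ± 0.08 at 2 h (adjusted p = 8.31e-06) and 1.10 ± 0.08 at 6 h (adjusted p = 5.11e-07), were called under every alternative run. Cenpa lies on chromosome 5 from 30666777 to 30674830 (GRCm38, plus strand), and none of its exons overlaps another annotated gene. Slc35f6, the nearest gene before it, ends 7047 bases away on the same strand and was 126 ± 1.77 CPM untreated, 148 ± 6.29 CPM at 2 h and 158 ± 7.51 CPM at 6 h (SD, n = 3 each), log2 fold changes of 0.23 and 0.32. Dpysl5, the nearest gene after it, had 0.03 at 2 h and 0.35 at 6 h.

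Of 21 other genes of centromere proteins and of Cenpa loading, 5 rose and 1 fell at 2 h, and 1 rose and 4 fell at 6 h. Over all tested genes, 19.3% were called higher and 19.2% lower at 2 h, and 26.4% and 25.7% at 6 h. The gene that rose at 6 h was Mis18a, which encodes a subunit of the Mis18 complex that prepares centromeres for new CENP-A. It was 9.64, 9.59 and 9.63 CPM untreated, 14.5, 16.1 and 13.6 CPM at 2 h and 17.9, 19.2 and 20 CPM at 6 h. As in Cenpa, the 3 groups did not overlap (0.62 ± 0.07 at 2 h, adjusted p = 3.53e-05, and 0.99 ± 0.07 at 6 h, adjusted p = 6.42e-07). Hjurp, the chaperone gene of CENP-A, was 44.1 ± 0.371 CPM untreated, 47.1 ± 1.91 CPM at 2 h and 39.8 ± 1.02 CPM at 6 h (SD, n = 3 each), and was lower by 0.25 ± 0.05 on the log2 scale at 6 h than at 2 h. Cenpl, of the inner kinetochore, was 8.61, 8.71 and 8.93 CPM untreated, 20, 15.9 and 21.6 CPM at 2 h and 9.63, 8.60 and 8.75 CPM at 6 h. It was high in all 2 h libraries and not at 6 h, with 1.13 ± 0.10 at 2 h. Cenpb, which binds centromeric repeats, fell by 0.34 ± 0.05 on the log2 scale at 6 h. Between 6 h and 2 h, 8 of the 21 genes were lower and 1 was higher, where 24.4% of all tested genes were lower and 24.3% higher.

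Other genes of replication, mitosis and their control were read from lists that do not include the 37. These lists too were chosen with earlier results of these data known. Their counts stand against 19.2% of all tested genes called lower and 19.3% higher at 2 h. At 6 h these shares were 25.7% and 26.4%, and between the times 24.4% and 24.3%. Of 46 other replication and S phase genes, 10 fell and 8 rose at 2 h, 22 fell and 8 rose at 6 h, and 18 were lower and 5 higher at 6 h than at 2 h. The replication fork gene Timeless was 7.10, 7.83 and 6.98 CPM untreated, 5.17, 4.68 and 5.78 CPM at 2 h and 2.43, 2.96 and 2.82 CPM at 6 h (-1.40 ± 0.11 at 6 h). Every 6 h library of Timeless lay below every other library. The nuclease gene Dna2 fell at both times (-0.65 ± 0.06 and -0.67 ± 0.06). Lig1, the ligase gene that joins Okazaki fragments, rose, from 12.1, 11.6 and 11.2 CPM to 16.2, 17.1 and 14.5 CPM at 2 h and 19.5, 18.6 and 20.3 CPM at 6 h (0.46 ± 0.07 at 2 h). The deoxycytidine kinase gene Dck was 94.4, 97.1 and 97.4 CPM untreated, 120, 92.6 and 148 CPM at 2 h and 20.2, 21.6 and 21.7 CPM at 6 h, with -2.50 ± 0.16 for 6 h against 2 h. The other genes of this list that rose at 6 h, named after their values were seen, were Cdt1 (0.39), Dbf4 (0.21), Gins3 (0.40), Gins4 (0.25), Fen1 (0.18), Chaf1b (0.26) and Slbp (0.30).

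Of 42 tested genes among 44 other mitosis genes, 6 fell and 5 rose at 2 h, 25 fell and 2 rose at 6 h, and 20 were lower and 2 higher at 6 h than at 2 h. The tubulin gene Tubb4b, which is not restricted to dividing cells, fell from 126 ± 6.58 CPM to 67.9 ± 2.39 CPM at 2 h and 74.8 ± 3.04 CPM at 6 h (SD, n = 3 each). The spindle gene Hmmr went from 8.24 ± 0.741 CPM untreated and 7.72 ± 0.970 CPM at 2 h to 4.41 ± 0.228 CPM at 6 h (-0.89 ± 0.11, SE, at 6 h). Cks2, a Cdk subunit gene, rose at 2 h (0.65 ± 0.11) and at 6 h (0.45 ± 0.12). The spindle gene Ckap2l rose at 2 h (0.75 ± 0.14) and fell at 6 h against untreated (-0.39 ± 0.15). It was thus lower by 1.14 ± 0.14 on the log2 scale at 6 h than at 2 h.

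Of 28 cell cycle transcription factors and switches, 7 fell and 5 rose at 2 h, 8 fell and 5 rose at 6 h, and 5 were lower and 6 higher at 6 h than at 2 h. In how many genes were called, this list lay near the whole table. There 19.2% were lower and 19.3% higher at 2 h, 25.7% and 26.4% at 6 h, and 24.4% and 24.3% between the times. E2f8, an atypical E2F that represses E2F targets, was 34.6, 30.7 and 32.5 CPM untreated, 17.8, 17.2 and 18.4 CPM at 2 h and 16.4, 15.4 and 17.0 CPM at 6 h (-0.87 ± 0.06 and -1.0 ± 0.06). All treated libraries lay far below the untreated ones. E2f4, a mainly repressive E2F, fell at 2 h (-0.37 ± 0.05) and was 45.3 ± 0.927 CPM at 6 h against 46.2 ± 1.70 CPM untreated (SD, n = 3 each). Named after their values were seen, Foxm1 (-0.54 ± 0.09) and Mybl2 (-0.53 ± 0.13) fell at 6 h. Lin54, also named so, rose at 2 h (1.52 ± 0.15) and was not called at 6 h (0.14 ± 0.16). Of the genes in this list that regulate Cdk1 by phosphorylation, Wee1 and Cdc25b rose at 6 h, and Pkmyt1 (-0.18), Cdc25a (-0.04) and Cdc25c (-0.36) were not called. Wee1, the kinase gene that inhibits Cdk1, was 6.95, 7.14 and 6.92 CPM untreated, 8.30, 10.7 and 9.09 CPM at 2 h and 15.6, 14.8 and 17.6 CPM at 6 h (0.77 ± 0.10 for 6 h against 2 h). Cdc25b, a phosphatase gene that activates Cdk1, went from 15, 14.7 and 15.5 CPM to 25.3, 26.0 and 26.4 CPM at 6 h (0.78 ± 0.06). Exons of Lig1, Timeless, Fen1, Slbp, Tubb4b, Ckap2l, E2f8 and Cdc25b overlap another annotated gene on the opposite strand, and those of Cenpb overlap Spef1, so reads there are not assigned by strand.

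**Figure D4:**
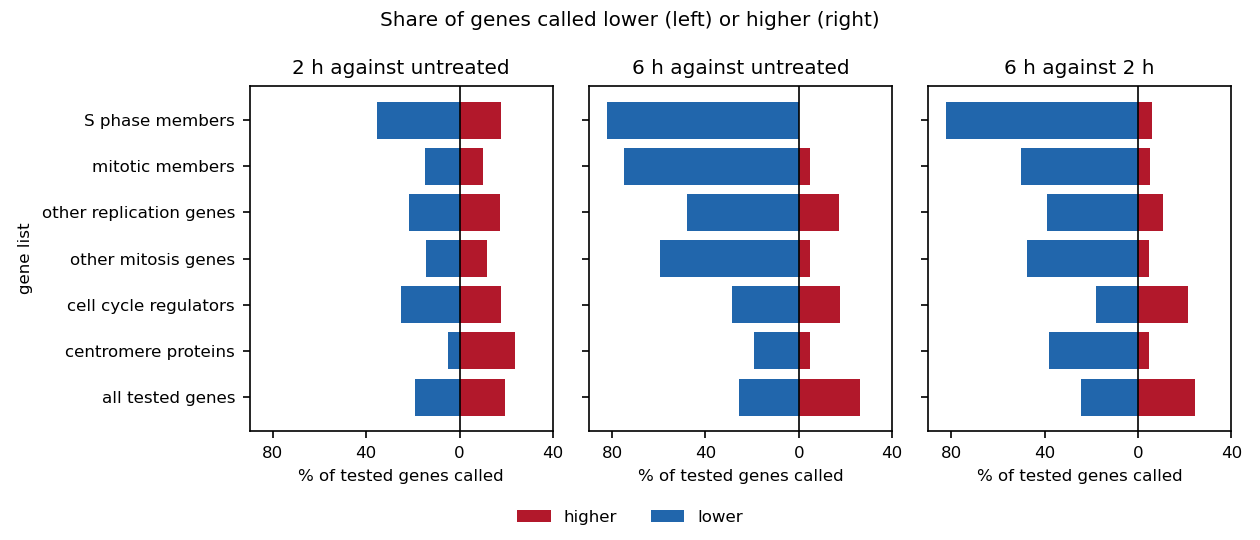
Percent of tested genes called lower (blue, left of 0) and higher (red, right of 0) in each comparison, for the S phase and mitotic genes, 4 lists of other cell cycle genes and all tested genes. At 6 h against untreated, 82.4% of S phase and 75% of mitotic genes were lower, against 25.7% of all tested genes.

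Markers of other cells that the cultures could hold were read in the same libraries, and their counts at 6 h stand against 26.4% of all tested genes called higher and 25.7% called lower. Of 11 progenitor markers 5 were tested. The stem cell factor receptor gene Kit (11.9 CPM untreated, 14.6 CPM at 2 h, 15.2 CPM at 6 h) and Sox4 (12.6, 20.6 and 22.2 CPM) rose at both times, and none was called lower. The other tested markers, Cd34 (-1.09), Myb (-0.07) and Meis1 (-0.23), were not called at 6 h. The summed progenitor level, mostly from Kit and Sox4, was 23.9 to 30.4 CPM untreated, 37.4 to 40.3 CPM at 2 h and 37.1 to 43.1 CPM at 6 h. Mpo, Elane and Prtn3, genes of early granulocytic cells, had at most 6, 2 and 5 counts in any library, and Ctsg had 0. Dendritic cell markers included 2 of 15 that rose and 6 that fell at 6 h, with a summed level of 8100 to 9350 CPM untreated, 8730 to 9600 CPM at 2 h and 7520 to 8290 CPM at 6 h. Macrophage and monocyte markers included 4 of 14 that rose and 7 that fell at 6 h, and summed to 20000 to 21400 CPM untreated, 22200 to 23500 CPM at 2 h and 21200 to 22500 CPM at 6 h. Of 10 granulocyte markers 8 were tested, and 4 fell and 0 rose at 6 h, with sums of 2090 to 2260 CPM untreated, 1990 to 2120 CPM at 2 h and 1820 to 1920 CPM at 6 h, nearly all from Mmp8.

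Lymphocyte markers summed to at most 0.952 CPM in any library, and mast cell and basophil markers to at most 11.1 CPM, nearly all from Gata2. Erythroid and megakaryocyte markers summed to 39.7 to 50.5 CPM untreated and 49.4 to 57.1 CPM at 6 h, mostly from Pf4. Stromal markers summed to 4.18, 14.6 and 4.86 CPM in the untreated libraries, 5.24 to 6.44 CPM at 2 h and 6.76 to 7.36 CPM at 6 h. The high value of untreated replicate 2 came mainly from the endothelial genes Cdh5 (7.86 CPM) and Pecam1 (4.93 CPM), and without that library every 6 h library lay above the untreated ones. Of the nuclear-retained RNAs, Malat1 was at 0.03 at 6 h and was not called, and Neat1 fell (-0.80). The part of these shifts in the changes of the replication and mitosis genes was not tested.

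Because S phase and mitotic genes fell together at 6 h, their promoter sequences were read for the motifs known for each class. RefSeq promoters (GRCm38.p6) were found for 30 of the 37 genes, 14 of S phase and 16 of mitosis. There were none for Aurkb, Mcm4, Tpx2, Gins2, Ccna2, Kif20a and Ccne2. In the 250 bases before the start, an E2F site (TTNNCGC with each N being C or G, on either strand) was present in 7 of 14 S phase promoters (50%) and 3 of 16 mitotic promoters (18.8%), against 7.97% of the 27025 promoters of the table. A CHR element (TTTGAA or TTCGAA, on either strand), the motif through which the DREAM and MuvB complexes are known to act on mitotic genes, was present in 3 S phase promoters (21.4%) and 8 mitotic promoters (50%), against 17.4% of all. With the 50 bases after the start included, a choice made after seeing the data, CHR letters were in 13 of the 16 mitotic windows (81.2%) and 3 of the S phase windows (21.4%), against 19.4% of all. E2F sites were then in 8 of the 14 S phase windows (57.1%) and 3 of the mitotic windows (18.8%), against 9.69% of all. A CCAAT box (CCAAT, either strand) was in 11 S phase (78.6%) and 15 mitotic promoters (93.8%), against 34.5%, and a GC box (GGGCGG, either strand) in 11 (78.6%) and 11 (68.8%), against 32.9%. The E2F and CHR forms cannot overlap each other, while a GC box or a CCAAT box can overlap an E2F site.

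The promoters below, all on the plus strand of GRCm38.p6, belong to the genes with the smallest p at 6 h in their class that hold the motif of that class, plus Cenpa for contrast. They show up to 250 bases before the RefSeq start, without bases inside the annotated gene, and capitals mark the E2F site in S phase genes and the CHR letters in mitotic genes. In Uhrf1 (chr17:56303087-56303320) the site began 48 bases before the start, in Mcm5 (chr8:75109259-75109508) sites began 164, 152 and 149 bases before it, and the last 2 of these overlap. In Bub1b (chr2:118597961-118598210) the CHR letters began 188 bases before the start and in Kif11 (chr19:37376132-37376381) 19 bases before it. In Cenpa (chr5:30666636-30666776) the 141 bases shown hold none of these motifs, while the rest of its window, inside the annotated gene, has 2 CCAAT boxes, 1 stretch of CHR letters and 1 GC box. A match describes letters, and no match says only that these letters are absent from the window. Apart from Cenpa, the genes shown were picked for holding the motif, so they cannot tell whether motif and fall go together. Before the start, Cdk1, which was not called at 6 h, had 2 E2F sites and 2 stretches of CHR letters. Mcm2, Mcm3 and Pcna fell at 6 h and had no E2F site there. Whether the motifs go with the changes was not tested.
Uhrf1: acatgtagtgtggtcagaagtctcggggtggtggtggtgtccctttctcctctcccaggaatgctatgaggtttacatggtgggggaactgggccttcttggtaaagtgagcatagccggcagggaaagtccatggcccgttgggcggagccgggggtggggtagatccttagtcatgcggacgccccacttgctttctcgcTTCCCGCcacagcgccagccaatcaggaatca
Mcm5: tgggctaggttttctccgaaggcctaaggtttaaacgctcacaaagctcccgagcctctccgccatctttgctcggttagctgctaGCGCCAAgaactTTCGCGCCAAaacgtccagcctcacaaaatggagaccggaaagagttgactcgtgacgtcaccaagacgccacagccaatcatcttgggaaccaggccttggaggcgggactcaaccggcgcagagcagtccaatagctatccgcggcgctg
Bub1b: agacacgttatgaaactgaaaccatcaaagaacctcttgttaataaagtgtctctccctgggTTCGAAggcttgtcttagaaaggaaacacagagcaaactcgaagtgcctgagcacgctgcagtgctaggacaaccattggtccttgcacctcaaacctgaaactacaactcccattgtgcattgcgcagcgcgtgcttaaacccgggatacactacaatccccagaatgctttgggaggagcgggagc
Kif11: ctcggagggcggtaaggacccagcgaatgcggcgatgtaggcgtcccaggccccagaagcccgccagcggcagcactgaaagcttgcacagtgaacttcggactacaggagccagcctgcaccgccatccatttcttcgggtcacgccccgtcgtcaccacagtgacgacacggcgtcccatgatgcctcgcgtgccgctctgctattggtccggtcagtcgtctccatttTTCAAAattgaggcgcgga
Cenpa: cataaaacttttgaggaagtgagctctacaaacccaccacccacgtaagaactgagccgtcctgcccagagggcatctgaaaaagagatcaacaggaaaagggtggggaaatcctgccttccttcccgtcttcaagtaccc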

How the data were processed

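RNA from mouse bone marrow-derived dendritic cells was sequenced from non-stranded libraries, per the labels' protocols. The authors deposited estimated counts per transcript identifier, made with RSEM 1.2.3 per the submitters' processing notes, which also name DESeq2 and the mm10 build. For the aligner and the annotation, the sources used here give no name. Identifiers were matched to genes through GENCODE M21 (GRCm38). Of 38887 rows, 37776 matched 1 gene and held 98.46% of counts. Each of the 37 genes had 1 row, so summing rows of a symbol changed nothing and was not run.

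Counts were cut down to whole numbers, filtered with filterByExpr (at least 10 counts, 15 in total) and scaled by TMM (factors 0.974 to 1.03). They were tested in a single edgeR 4.0.16 quasi-likelihood fit over the 9 libraries (R 4.3.3). P-values were adjusted by Benjamini-Hochberg over 14363 genes, with calls at 0.05. On data simulated for 6 h against untreated (14214 genes), 67, 67 and 66 genes were changed, by 1.5-fold, 2-fold and 4-fold. Of these, 52.2%, 74.6% and 98.5% were recovered, and 7.41% of calls were unchanged genes. In the real comparison 52% of tested genes were called, a far larger share. The Benjamini-Hochberg cutoff depends on that share, so the simulated rates do not give the recovery or false calls of the real fit. Library depth limits the precision of the low genes.

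The 37 genes and the other lists were chosen with earlier results of these data known. Statistics were printed for the 5 genes of each class with the smallest p in each comparison, for called genes that went against most, and for Mki67, Top2a, Ccnb1, Cdk1, Pcna, Mcm2, Rrm2, Ccne1, Ccne2 and Cenpa. From each other cell cycle list the 2 genes with the smallest p per comparison were named. Further genes were named after their values were seen. Same-numbered libraries deviated together for 6 h against untreated (correlations 0.18, 0.14 and 0.15), so the numbers were taken to pair those groups. That pairing rests on the data and not on a stated shared source. It is weak, since differently numbered libraries were not compared and 2 h against untreated gave 0.17, 0.09 and 0.18. The fit that gave the calls did not use the pairing. No 2 replicates agreed within sampling noise. Alternatives were other scalings, DESeq2 1.42.0, limma-voom (limma 3.58.1), other filters, a replicate block, 6 libraries only, libraries left out in turn and thinning to equal depth.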

Additional observations from a re-analysis of the deposited data

Results flagged for a closer look

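For 26 of the 37 genes the response to LPA at 6 h differed from that at 2 h by the test of the difference itself, which is the comparison of 6 h with 2 h in edgeR's quasi-likelihood fit. That is 70.3% of the 37 genes, where 48.7% of all tested genes were called. The values are log2 differences, 6 h minus 2 h. Among genes of cell division, the difference was -0.69 for Ccnb2, -0.67 for Ube2c, -0.62 for Cdc20, -0.59 for Bub1b, -0.57 for Ccna2, -0.40 for Kif11, -0.37 for Top2a, -0.31 for Cdk1, -0.29 for Cenpe and -0.28 for Aurka. Among S phase genes it was -0.58 for Tk1, -0.49 for Ccne2, -0.46 for Rrm2, -0.45 for Mcm2, -0.41 for Uhrf1, -0.39 for Mcm3, -0.33 for Mcm5, -0.32 for Mcm4 and for Mcm6, -0.24 for Gins2 and for Rrm1, and -0.19 for Mcm7, for Pcna and for Tyms. It was positive for Ccne1 (0.24) and Cenpa (0.29).

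Of these 26 differences, 19 were called under every alternative run, and those of Aurka, Cenpe, Ccne1, Ccne2, Gins2, Rrm1 and Tyms were not. Aurka lost its call under 11 of 19 alternatives, including without 2 h replicate 1 or 3 or any 1 of the 6 h libraries. Tyms lost it under 8, including without 2 h replicate 1 or 3 or 6 h replicate 2 or 3. Cenpe lost it under 7, including without untreated replicate 3, 2 h replicate 1 or 3, or 6 h replicate 1 or 3. Rrm1 lost it without 2 h replicate 1 or 6 h replicate 3, and Gins2 without 6 h replicate 3.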

How the results depend on the processing

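Of the genes called, 8 of 14 at 2 h, 24 of 30 at 6 h and 19 of 26 between the times were called under all 19 alternatives. No called gene changed direction. The number of S phase genes that rose at 2 h (3) was 1 with limma-voom and 1 with only the 6 libraries compared, and with 1 library left out it ran from 0 to 3. The number of mitotic genes that fell at 2 h (3) ran from 2 to 6 with 1 library left out, and the number of S phase genes higher at 6 h than at 2 h (1) from 0 to 1. With total-count scaling the summed S phase level was 513 CPM untreated and 420 CPM at 6 h. With Cenpa left out, the summed mitotic level was 183 CPM at 2 h and 149 CPM at 6 h, in place of 210 and 183 CPM. In the fit with a replicate block, 7 mitotic genes fell at 2 h. There the pairing was not taken to hold, since correlations were 0.17, 0.09 and 0.18. These are close to the 0.18, 0.14 and 0.15 of 6 h against untreated, so that choice is a weak one. For 6 h against untreated the block changed no call other than that of Kif20a.

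Some genes that were not called changed sign. With 1 library left out, the log2 fold change at 2 h ran from -0.10 to 0.07 for Ccne2, from -0.10 to 0.09 for Top2a, from -0.22 to 0.00 for Ccnb1, from -0.13 to 0.09 for Cdc20, from -0.07 to 0.11 for Cenpe and from -0.07 to 0.10 for Ube2c. That at 6 h ran from -0.09 to 0.03 for Gins2 and from -0.02 to 0.07 for Cdk1, and that between the times from -0.12 to 0.11 for Cenpf. At equal depth Top2a was 0.00, Cdc20 0.01 and Ccnb2 -0.06 at 2 h, and between the times Chaf1a was -0.01 and Cenpf 0.02. With total-count scaling Ube2c was -0.01 at 2 h, Gins2 0.01 at 6 h and Cenpf 0.02 between the times, and with limma-voom Ube2c was -0.01 at 2 h. The cause was not tested.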
